A study of Homo sapiens with 8 samples.

Results

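The regions described here are the bodies of 8 very long genes, PCDH15, CSMD3, CSMD1, LRP1B, PTPRD, CNTNAP2, CTNNA3 and DLG2, in MOLM14 cells. They were chosen by name and by fixed GRCh37 spans, cut into windows of 5 kb, which gave 2946 windows (14.73 Mb, 0.485% of all) of the 607248 full windows of chromosomes 1 to 22 and X. The human line MOLM14 grew from an acute myeloid leukaemia and carries an activating internal tandem duplication of the receptor tyrosine kinase FLT3. Cells received the FLT3 inhibitor quizartinib (AC220) for 24 h or its solvent DMSO for the same time, and the histone mark H3K27me3 was mapped by chromatin immunoprecipitation and sequencing, with Drosophila S2 cells added to both groups before lysis. The series has 8 samples: 2 H3K27me3 libraries with AC220, 2 with DMSO and 4 inputs whose values were not used here. All come from 1 cell line, and nothing in the labels says that libraries of a treatment came from separate cultures, so p-values measure only the spread between libraries, which may be technical. The question addressed by the comparison is whether FLT3 inhibition altered where this mark is found.

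H3K27me3 is written by the Polycomb complex PRC2 and marks silenced genes. In mammals it is best known from CpG-rich promoters of developmental regulators, from which it can spread as broad domains, while gene-poor DNA tends to carry it thinly. Many of the genes here are known mainly from neurons, and PTPRD, CNTNAP2 and DLG2 act at synapses or axons. All of the genes have in common very long introns, AT-rich surroundings and replication late in S phase, and several overlap common fragile sites. The readout was the covered share, the percentage of the bases of a region that fall within peaks listed for that library. The name giant neuronal genes could not be checked against expression, and CTNNA3 is best known from heart muscle.

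Promoter sequences show how far the starts of these genes differ in CpG content. RefSeq promoters (GRCh38.p14, from 250 bases before to 50 after a start site) were at hand for 5 of the 8 genes. Of these, 4 are printed, each 5′ to 3′ on the strand of the gene and with every CpG dinucleotide (the letters CG) in capitals, because the coverage at their starts differed widely. They are the PTPRD promoter (chr9:10612953-10613252, minus strand), the CNTNAP2 promoter (chr7:146116551-146116850, plus strand), the DLG2 promoter (chr11:85628324-85628623, minus strand) and the CTNNA3 promoter (chr10:67696146-67696445, minus strand), with coordinates of GRCh38.p14, a build other than that of the peaks. Of 2 DLG2 start sites near that end of the gene, the outermost is shown.
PTPRD: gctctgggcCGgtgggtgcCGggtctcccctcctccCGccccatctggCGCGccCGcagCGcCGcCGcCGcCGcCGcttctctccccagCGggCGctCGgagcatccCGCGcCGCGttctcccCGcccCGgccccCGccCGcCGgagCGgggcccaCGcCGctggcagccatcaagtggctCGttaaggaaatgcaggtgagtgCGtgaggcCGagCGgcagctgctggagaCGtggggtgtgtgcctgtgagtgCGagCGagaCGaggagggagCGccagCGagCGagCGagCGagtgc
CNTNAP2: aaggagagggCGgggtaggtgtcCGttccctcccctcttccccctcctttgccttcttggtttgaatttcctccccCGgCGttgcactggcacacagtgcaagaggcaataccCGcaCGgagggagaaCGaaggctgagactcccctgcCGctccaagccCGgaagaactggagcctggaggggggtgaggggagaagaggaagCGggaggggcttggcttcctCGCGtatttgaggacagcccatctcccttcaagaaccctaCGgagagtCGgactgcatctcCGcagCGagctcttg
DLG2: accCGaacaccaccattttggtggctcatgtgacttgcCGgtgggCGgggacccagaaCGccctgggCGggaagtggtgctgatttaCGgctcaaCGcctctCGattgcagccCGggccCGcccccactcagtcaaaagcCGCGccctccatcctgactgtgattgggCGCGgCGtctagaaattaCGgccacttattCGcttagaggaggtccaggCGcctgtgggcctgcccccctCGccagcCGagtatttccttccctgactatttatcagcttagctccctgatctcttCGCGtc
CTNNA3: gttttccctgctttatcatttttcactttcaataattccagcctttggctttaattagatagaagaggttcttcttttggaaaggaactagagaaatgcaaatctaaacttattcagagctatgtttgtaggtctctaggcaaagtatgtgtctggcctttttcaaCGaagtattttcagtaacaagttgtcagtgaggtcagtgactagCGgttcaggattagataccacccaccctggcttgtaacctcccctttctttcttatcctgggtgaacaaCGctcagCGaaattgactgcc
The PTPRD promoter holds 40 CpGs in 300 bases, and 7.61% of the 35116 promoters in the table hold at least as many. The DLG2 promoter holds 22 (37.7% of promoters hold at least as many), the CNTNAP2 promoter 16 (47.5%) and the CTNNA3 promoter 4 (75.5%). The PCDH15 promoter holds 8 (60.7%). CSMD1, CSMD3 and LRP1B are named only.

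The spans lie on chromosome 10 from 55.56 to 56.56 Mb (PCDH15), chromosome 8 from 113.24 to 114.45 Mb (CSMD3) and from 2.79 to 4.85 Mb (CSMD1), chromosome 2 from 140.99 to 142.89 Mb (LRP1B), and chromosome 9 from 8.31 to 10.61 Mb (PTPRD). CNTNAP2 spans 145.81 to 148.12 Mb of chromosome 7, CTNNA3 67.68 to 69.46 Mb of chromosome 10 and DLG2 83.17 to 85.34 Mb of chromosome 11. By Giemsa stain, 1474 of their 2946 windows lay in the darkest class of bands, 39.1% in the dark grey class and 10.9% in unstained bands. CNTNAP2 is read towards higher coordinates and the other 7 towards lower ones, which sets the end called the start.

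Coverage in the first 10 kb after the starts ran from none to nearly complete. PTPRD, with the most CpGs of the 5 promoters counted, had a covered share of 0% over that stretch in AC220 1, AC220 2, DMSO 1 and DMSO 2. DLG2 was covered over 25.8% in AC220 1 and 42.0% in AC220 2, against 18.0% in DMSO 1 and 69.0% in DMSO 2. CTNNA3, with the fewest of the 5, was covered over 24.9% in AC220 1 and 45.8% in AC220 2, against 25.7% in DMSO 1 and 47.7% in DMSO 2. Over its first 20 kb the shares were 12.5% and 35.4% in AC220 1 and AC220 2, against 16.4% and 56.2% in DMSO 1 and DMSO 2, so the gap there was wider than over 10 kb. CNTNAP2 was covered over 0% and 28.3% in AC220 1 and AC220 2, against 21.0% and 24.3% in DMSO 1 and DMSO 2. The spans are given to the nearest 0.01 Mb, so a start site can lie several kb inside or outside its span. In PCDH15 these 10 kb were covered over 0% and 17.7% in AC220 1 and AC220 2, against 2.81% and 43.8% in DMSO 1 and DMSO 2.

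The libraries set the scale of all values. Those numbered 2 listed about 2.5 times the covered length of those numbered 1 (2.59-fold with AC220, 2.55-fold with DMSO), a gap wider than that between treatments, so values are given within each number beside pooled ones. Over the whole of chromosomes 1 to 22 and X outside the gene bodies, the covered share was 6.35% in AC220 1 and 16.4% in AC220 2, against 7.66% in DMSO 1 and 19.5% in DMSO 2. That is 17.1% lower with AC220 within number 1 and 15.8% lower within number 2. The lists hold no read counts, so depth is unknown, and a share of 0 means only that no peak was listed. The lists hold no reads of the spiked-in cells, and a total level of H3K27me3 in a cell cannot be had from them.

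Each of the 8 gene bodies was covered less with AC220 than with DMSO within both numbers, and each was covered less than the rest of the genome in all 4 libraries, except CSMD1 in DMSO 2 (20.2%, against 19.5% in the rest). Together they had a covered share of 0.796% in AC220 1 and 5.37% in AC220 2, against 1.66% in DMSO 1 and 10.1% in DMSO 2. This is 52.0% lower with AC220 within number 1 and 47.0% lower within number 2 (log2 ratios of -1.06 and -0.92), while the rest of the genome had log2 ratios of -0.27 and -0.25. Of 2 Mb tiles along chromosomes 1 to 22 and X with coverage in all 4 libraries, 73.6% were lower with AC220 within both numbers, so the direction alone is common; of 1 Mb tiles, about the size of PCDH15 and CSMD3, 67.4% were lower within both numbers. A log2 ratio of -0.5 or less within both numbers was found for 6 of the 8 gene bodies (all but CNTNAP2 and DLG2), against 19% of all 2 Mb tiles. This rule was set after the values had been seen, and the count depends on it. Within number 1, LRP1B (-0.503) only just met it and DLG2 (-0.488) only just missed it. Among sparse tiles, those with a mean covered share below 10% over the 4 libraries, 34.2% met that rule; the gene bodies had means of 1.61% to 9.73%. The median log2 ratios of the 8 gene bodies were -0.91 and -0.96, those of all tiles -0.30 and -0.30, and those of sparse tiles -0.38 and -0.57.

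**Figure D1:**
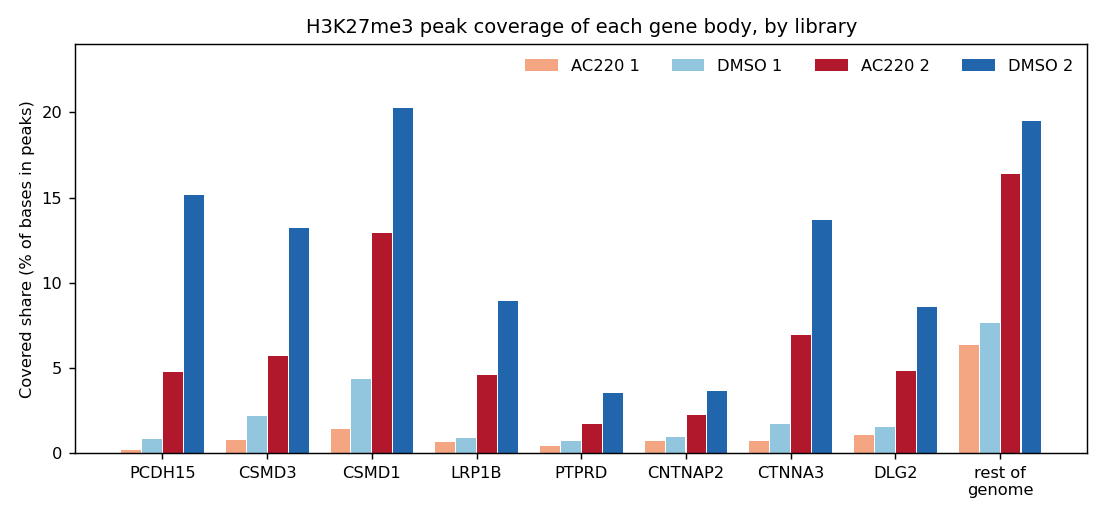
Covered share of each gene body and of the rest of chromosomes 1 to 22 and X (vertical axis, percent of bases in peaks), with 1 bar per library. Within each number the AC220 bar is lower than the DMSO bar for all 8 genes, and CSMD1 in DMSO 2 (20.2%) is the highest bar of any gene body.

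Pooled over numbers, the covered share of the gene bodies was 3.08% ± 3.24 with AC220 and 5.90% ± 5.99 with DMSO (SD, n = 2 each), with a log2 ratio of -0.99 (p = 0.667 by a two-sided exact permutation test). The groups overlapped, because AC220 2 lay above DMSO 1. With 2 libraries against 2 this test cannot give a p below 0.33. The pooled direction turned without AC220 1 (log2 ratio 0.39) or without DMSO 2 (0.32), and the log2 ratio was -2.36 without AC220 2 and -2.29 without DMSO 1; each removal leaves the numbers unbalanced.

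Set against the rest of the genome in the same library, the pooled gene bodies had less coverage, and the gap was wider with AC220 within both numbers. Their log2 ratio to the rest was -3.00 in AC220 1 and -1.61 in AC220 2, against -2.21 in DMSO 1 and -0.94 in DMSO 2. The AC220 minus DMSO difference in that log2 ratio was -0.79 within number 1 and -0.67 within number 2. Pooled, the log2 ratio was -2.30 ± 0.98 with AC220 and -1.58 ± 0.895 with DMSO (SD, n = 2 each; p = 0.667 in the exact test), and the difference was smaller than the spread between libraries. Without AC220 1 the pooled difference was -0.03 without DMSO 2 it was -0.09, without AC220 2 -1.42 and without DMSO 1 -1.36. Against bands of the darkest Giemsa class outside the gene bodies, which had covered shares of 2.07% in AC220 1 and 7.98% in AC220 2 against 3.01% in DMSO 1 and 12.05% in DMSO 2, the differences within numbers were -0.52 and -0.32 (exact permutation p = 0.667). By gene, PCDH15, CSMD3, CSMD1, PTPRD and CTNNA3 were lower with AC220 relative to those bands within both numbers, whereas LRP1B (0.03 and -0.36), CNTNAP2 (0.20 and -0.08) and DLG2 (0.05 and -0.23) were not. CSMD1 itself lay above those bands in AC220 2, DMSO 1 and DMSO 2 (log2 ratios of 0.69, 0.54 and 0.75) and below them in AC220 1 (-0.55). Relative to the rest of its own chromosome, each of the 8 gene bodies was lower with AC220 within both numbers, from -1.99 and -1.48 for PCDH15 to -0.09 and -0.36 for CNTNAP2.

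The comparison was repeated with covered lengths made equal. The weakest DMSO peaks of each number were dropped until the list covered as much as the AC220 list. The gene bodies were still lower with AC220, with log2 ratios of -0.52 within number 1 and -0.39 within number 2. The rest of the genome stood at 0.00 in both, a value fixed by the trimming itself and so not an independent reference. Of the gene bodies, 7 of 8 were then lower within both numbers, DLG2 being the exception, against 34.8% of 2 Mb tiles. With the 4 lists cut to 1 common covered length, the log2 ratios were -0.52 and -1.16, and again 7 of 8 were lower within both numbers, against 35.2% of tiles. Tiles without coverage in a library were left out of these shares. PCDH15, with 0% in AC220 2 against 0.389% in DMSO 2 at the common length, was still counted as lower.

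**Figure D2:**
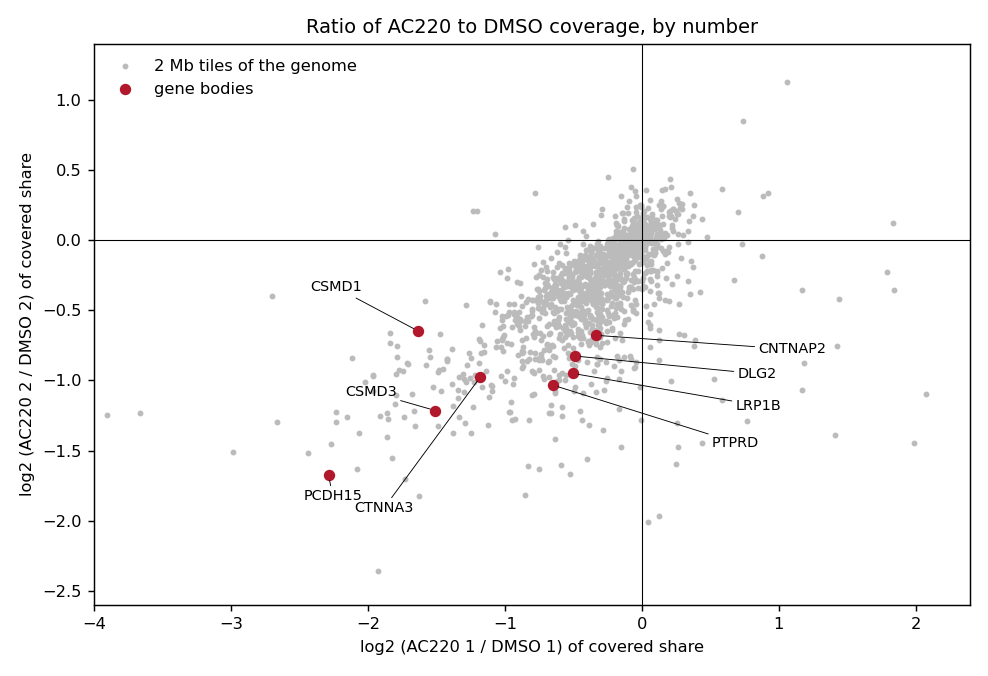
Log2 ratio of AC220 to DMSO covered share within number 1 (horizontal axis) and within number 2 (vertical axis) for the 8 gene bodies (large points) and 1356 tiles of 2 Mb (small points). All gene bodies lie to the lower left of 0, PCDH15 farthest at -2.29 and -1.67, CNTNAP2 nearest at -0.34 and -0.68.

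PCDH15, which encodes a cadherin of the tip links of inner ear hair cells, had the lowest ratio of the gene bodies within both numbers. Its covered share was 0.173% in AC220 1 and 4.75% in AC220 2, against 0.844% in DMSO 1 and 15.1% in DMSO 2, which is 79.5% and 68.7% lower with AC220. It held 3 peaks in AC220 1 and 31 in AC220 2, against 6 in DMSO 1 and 58 in DMSO 2. The last 100 kb at its far end were covered over 1.01% and 16.1% in AC220 1 and AC220 2, against 5.98% and 52.7% in DMSO 1 and DMSO 2. Its first 300 kb had no peak in AC220 1 and a share of 4.05% in AC220 2, against 0.397% in DMSO 1 and 17.3% in DMSO 2. Its widest DMSO 2 peak (chromosome 10, 55614609 to 55629461, GRCh37, 14.9 kb) was covered over 1.36% in AC220 1 and 65.0% in AC220 2, and over 20.9% in DMSO 1. No window of PCDH15 was covered over at least 50% in all 4 libraries. With 3 to 6 peaks in the libraries numbered 1, the ratio within number 1 rests on very little covered sequence. With only peaks of a -log10 q of at least 2, its direction within number 1 turned, at 0.0807% in AC220 1 against 0% in DMSO 1, while number 2 kept it, at 2.0005% in AC220 2 against 6.75% in DMSO 2.

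CSMD1, a membrane protein with complement control domains that is expressed in the nervous system, was the gene body with the most coverage in each library, and at least 75.6% of it lay in 1 interior stretch. Over the whole body its covered share was 1.41% in AC220 1 and 12.9% in AC220 2, against 4.38% in DMSO 1 and 20.2% in DMSO 2. The stretch from 1.2 to 1.7 Mb after its start (chromosome 8, 3150001 to 3650000) was covered over 4.71% in AC220 1 and 42.0% in AC220 2, against 16.6% in DMSO 1 and 63.0% in DMSO 2. It makes up 24.3% of the gene and held 80.9% and 79.0% of the covered bases in AC220 1 and AC220 2, and 91.9% and 75.6% in DMSO 1 and DMSO 2. It was 71.6% lower with AC220 within number 1 and 33.4% lower within number 2, and every 100 kb step within it was lower with AC220 within both numbers. This stretch, like those of the other genes, was chosen after the profiles had been seen. The start of CSMD1 was bare only in the libraries numbered 1. Its first 100 kb had no peak in AC220 1 or DMSO 1 and shares of 6.41% in AC220 2 and 10.8% in DMSO 2. Of these, the first 10 kb were covered over 27.02% in AC220 2 and 47.15% in DMSO 2. The 100 kb beyond the start of CSMD1 held coverage in all 4 libraries.

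CSMD3, a related gene of the same family, had its widest peak at the start in 3 of the 4 libraries. Over the whole gene the share was 0.761% in AC220 1 and 5.69% in AC220 2, against 2.16% in DMSO 1 and 13.2% in DMSO 2, which is 64.8% and 56.9% lower with AC220. The first 10 kb were covered over 58.4% and 76.1% in AC220 1 and AC220 2, against 71.1% and 97.0% in DMSO 1 and DMSO 2, so the groups overlapped there. The widest peaks of AC220 1 (4.23 kb), AC220 2 (7.61 kb) and DMSO 1 (7.11 kb) all lay within that stretch, and their deposited fold enrichment over background ranked at percentiles 93.7, 99.3 and 95.1 of their own lists. In DMSO 2 the widest peak (16.4 kb, chromosome 8, 114192089 to 114208488) lay 242 kb inside the gene, and was covered over 8.65% in AC220 1 and 62.7% in AC220 2, and over 31.0% in DMSO 1. The interior of CSMD3 was covered over 0.209% and 4.58% in AC220 1 and AC220 2, against 1.55% and 11.2% in DMSO 1 and DMSO 2.

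LRP1B, a large receptor of the LDL receptor family that is often deleted in tumours, was likewise marked at its start. The gene body was covered over 0.654% in AC220 1 and 4.62% in AC220 2, against 0.927% in DMSO 1 and 8.93% in DMSO 2. The first 200 kb, 10.5% of the gene, were covered over 4.14% and 25.2% in AC220 1 and AC220 2, against 6.70% and 49.5% in DMSO 1 and DMSO 2. They held 66.7% and 57.4% of the covered bases of the gene with AC220, and 76.1% and 58.4% with DMSO. A peak at the start reached 7504 bp beyond the span in AC220 2 and 7536 bp in DMSO 2, and was 15.4 kb wide in AC220 2 (chromosome 2, 142882123 to 142897504) and 16.7 kb in DMSO 2 (142880847 to 142897536). It was covered over 92.2% of its DMSO 2 length in AC220 2.

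CTNNA3, which encodes alpha-T-catenin of cell junctions, had coverage at its start and at interior islands. Its covered share was 0.755% in AC220 1 and 6.96% in AC220 2, against 1.71% in DMSO 1 and 13.7% in DMSO 2. The first 100 kb were covered over 4.27% and 37.3% in AC220 1 and AC220 2, against 8.16% and 57.1% in DMSO 1 and DMSO 2. A second stretch, from 400 to 500 kb after the start, had shares of 5.25% and 33.5% in AC220 1 and AC220 2, against 10.4% and 55.3% in DMSO 1 and DMSO 2. A narrow island 770 kb after the start (chromosome 10, 68685001 to 68690000) was covered over 64.7% in AC220 1, 96.0% in AC220 2, 99.0% in DMSO 1 and 100% in DMSO 2. The RefSeq table places 1 other protein-coding gene inside CTNNA3, the synaptic adhesion gene LRRTM3; whether the island lies at its start was not determined, because that table is of another build.

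DLG2, which encodes the synaptic scaffold protein PSD-93, was marked mostly in its last 370 kb. The gene body was covered over 1.09% in AC220 1 and 4.84% in AC220 2, against 1.53% in DMSO 1 and 8.59% in DMSO 2. The last 370 kb were covered over 5.58% and 22.9% in AC220 1 and AC220 2, against 7.004% and 36.2% in DMSO 1 and DMSO 2, and held from 71.9% to 87.5% of the covered bases of the gene in each library. The ends of DLG2 lay on different sides within the numbers, and both ends together were covered over 6.36% in AC220 1 against 5.04% in DMSO 1, and over 22.7% in AC220 2 against 32.0% in DMSO 2. Its interior was lower within both numbers, at 0.553% and 3.03% in AC220 1 and AC220 2 against 1.17% and 6.21% in DMSO 1 and DMSO 2. In the last 100 kb alone the share was 9.75% in AC220 1 against 7.59% in DMSO 1, and 33.0% in AC220 2 against 44.7% in DMSO 2.

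CNTNAP2, which encodes the neurexin-like protein CASPR2 that clusters potassium channels along axons, was bare over most of its length. Peaks covered 0.743% of it in AC220 1 and 2.28% in AC220 2, against 0.938% in DMSO 1 and 3.65% in DMSO 2, the smallest difference among the gene bodies by the mean of both numbers (20.8% and 37.5% lower with AC220). Of its 23 steps of 100 kb, 20 had no peak in AC220 1, 19 in AC220 2, 20 in DMSO 1 and 17 in DMSO 2. The last 210 kb, 9.09% of the gene, held 90.1% and 85.2% of the covered bases with AC220 and 90.3% and 87.0% with DMSO. An island of 10 kb there (chromosome 7, 148030001 to 148040000) were covered over 70.1% in AC220 1, 90.4% in AC220 2, 76.6% in DMSO 1 and 92.2% in DMSO 2. The last 100 kb had a share of 14.1% in AC220 1 against 13.3% in DMSO 1, and 26.2% in AC220 2 against 39.4% in DMSO 2.

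PTPRD, a receptor tyrosine phosphatase of synapses, was the barest gene body in AC220 2, DMSO 1 and DMSO 2. Its densest coverage lay in a compact interior domain. Its covered share was 0.456% in AC220 1 and 1.73% in AC220 2, against 0.714% in DMSO 1 and 3.55% in DMSO 2. No peak was listed in its first 300 kb in any library, nor in the 100 kb beyond its start. The stretch from 1.9 to 2.0 Mb after the start (chromosome 9, 8610001 to 8710000), 4.35% of the gene, was covered over 9.995% and 20.7% in AC220 1 and AC220 2, against 16.0% and 33.1% in DMSO 1 and DMSO 2, which is 37.5% and 37.6% lower. It held 95.4% of the covered bases in AC220 1 and 97.4% in DMSO 1, but 51.9% in AC220 2 and 40.6% in DMSO 2, where scattered peaks made up the rest. The widest peak in any of the 8 gene bodies lay here, in DMSO 2 (chromosome 9, 8637176 to 8665801, 28.6 kb). It was covered over 34.9% in AC220 1 and 69.5% in AC220 2, and over 54.3% in DMSO 1.

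**Figure D3:**
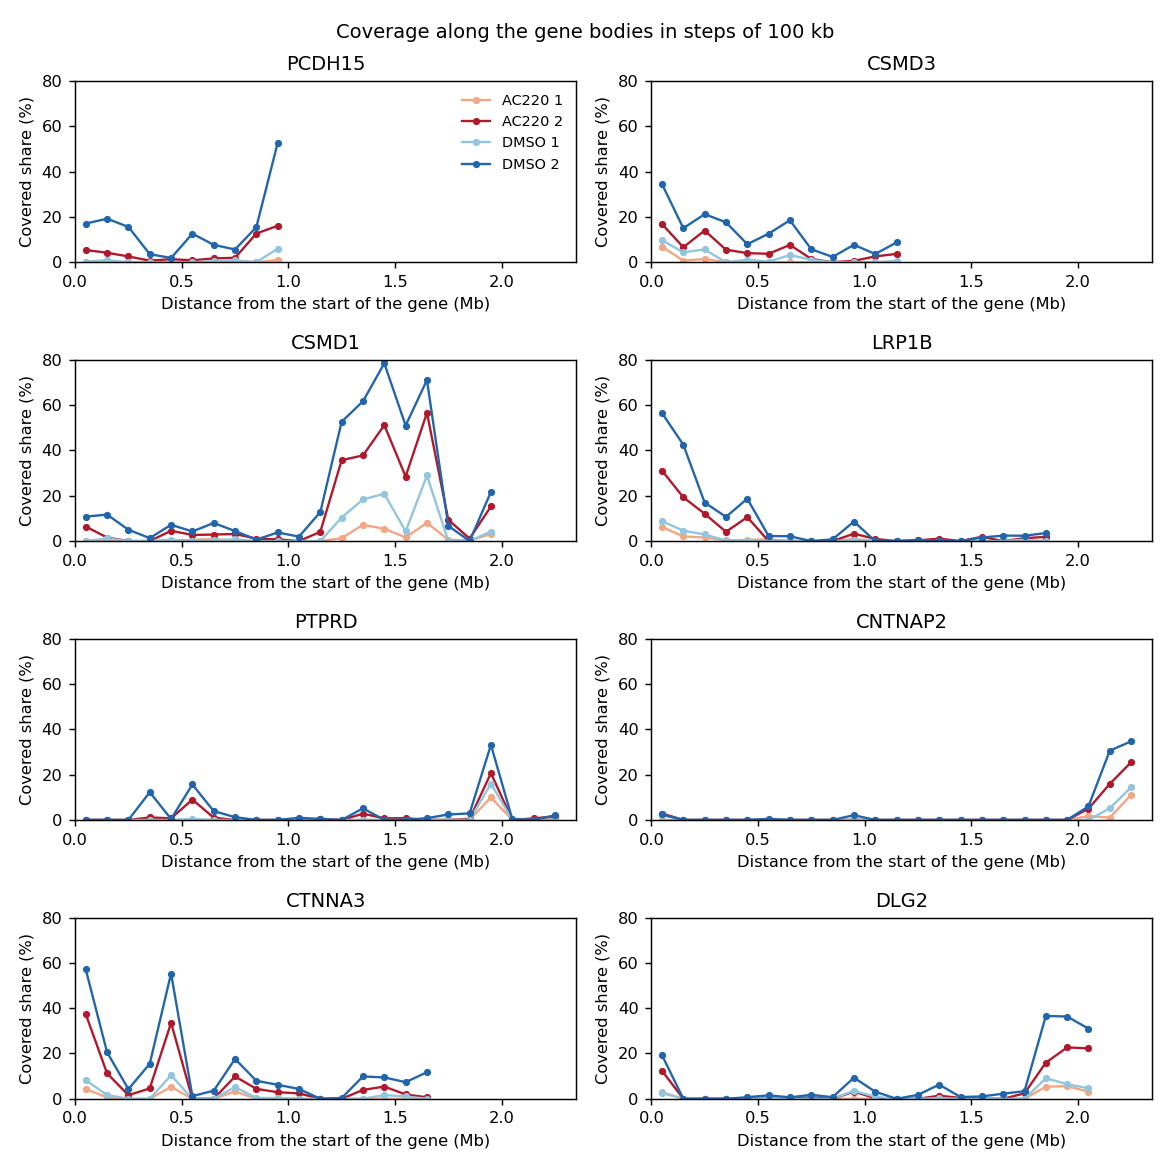
Covered share (vertical axes, percent) in steps of 100 kb from the start of each gene (horizontal axes, Mb), with 1 line per library; a last step shorter than 100 kb is left out. CSMD1 has its block of coverage between 1.2 and 1.7 Mb, LRP1B at its start, CNTNAP2 and DLG2 near their far ends, and PTPRD its highest step near 1.9 Mb.

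Along the gene bodies, 145 steps of 100 kb could be compared. Within number 1, 45 were lower with AC220, 11 were higher and the others were equal, mostly because no peak was listed in either library. Within number 2, 102 were lower and 12 higher. A lower share within both numbers was found in 44 steps and a higher share within both in 2, which lie in CSMD1 outside its dense stretch. Steps of 100 kb in the rest of the genome were not counted, so these counts have no background and cannot be read as particular to these genes. Steps without any peak numbered 109 in AC220 1 and 56 in AC220 2, against 96 in DMSO 1 and 37 in DMSO 2.

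The ends of the gene bodies were covered more densely than the interior in every library. The first 100 kb at the start had covered shares of 2.54% in AC220 1 and 14.0% in AC220 2, against 3.94% in DMSO 1 and 24.7% in DMSO 2. The last 100 kb at the far end had 3.24% and 12.1% in AC220 1 and AC220 2, against 3.70% and 21.9% in DMSO 1 and DMSO 2. The interior had 0.541% and 4.43% in AC220 1 and AC220 2, against 1.39% and 8.53% in DMSO 1 and DMSO 2. Both ends together were thus covered 5.34 and 2.95 times as densely as the interior in AC220 1 and AC220 2, against 2.74 and 2.73 times in DMSO 1 and DMSO 2. The groups did not overlap: the log2 ratio of ends to interior was 1.99 ± 0.61 with AC220 and 1.45 ± 0.003 with DMSO (SD, n = 2 each; exact p = 0.333, the smallest that 2 against 2 allows). The difference was 0.96 within number 1 and only 0.11 within number 2, so most of it came from AC220 1; without AC220 1 it was 0.11 and without AC220 2 it was 0.96. Within number 1 the ends were 24.4% lower with AC220 and the interior 61.2% lower, and within number 2 they were 43.9% and 48.0% lower.

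**Figure D4:**
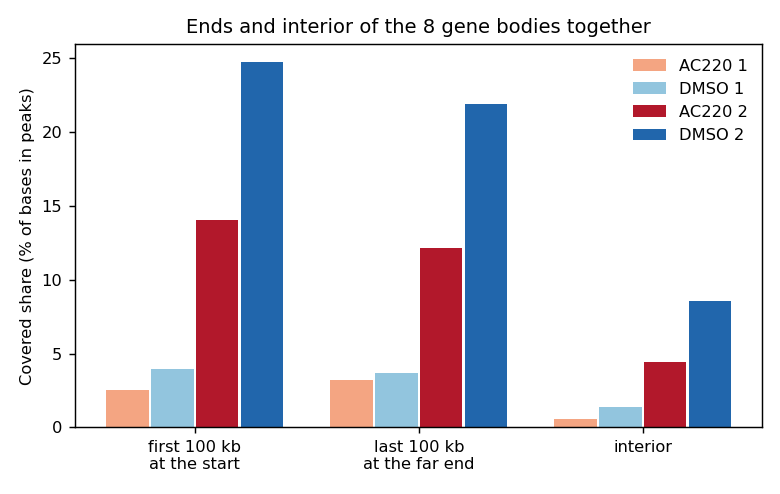
Covered share (vertical axis, percent of bases in peaks) of the first 100 kb, the last 100 kb and the interior of the 8 gene bodies pooled, with 1 bar per library. The interior is lowest in every library, and each AC220 bar is lower than the DMSO bar of its number.

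The pattern was not the same in every gene. The start was denser than the interior in all 4 libraries for CSMD3, LRP1B, CTNNA3 and DLG2, and the far end was so for PCDH15, CNTNAP2 and DLG2. In CSMD1 both ends together were sparser than the interior in all 4 libraries, at 0.131% and 7.29% in AC220 1 and AC220 2, against 0.164% and 9.03% in DMSO 1 and DMSO 2, beside an interior covered over 1.55% and 13.5% in AC220 1 and AC220 2, against 4.83% and 21.4% in DMSO 1 and DMSO 2. PTPRD had no peak at its start, and its far end was covered over 0.485% and 1.58% in AC220 1 and AC220 2, against 0% and 2.002% in DMSO 1 and DMSO 2.

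Few single windows separated the treatments. A window of 5 kb was called lower with AC220 where both DMSO shares stood 25 or more percentage points above both AC220 shares, and higher in the reverse case. By that rule 2 of 2946 windows were lower, 0.0679%, against 0.0883% of all windows of the genome, and 0 were higher, against 0.0171%, so the gene bodies lay near the background. Both lower windows are in the CSMD1 block. That at 3215001 to 3220000 of chromosome 8 was covered over 0% and 62.3% in AC220 1 and AC220 2, against 100% in both DMSO libraries. That at 3595001 to 3600000 was covered over 0% and 23.6% in AC220 1 and AC220 2, against 57.6% and 74.5% in DMSO 1 and DMSO 2, and is the only window of the gene bodies covered over at least 50% with DMSO in each library and with AC220 in none. Without DMSO 1, 253 windows met the rule for lower, and without AC220 2, 44 did. Without AC220 1, 6 met the rule for higher, and without DMSO 2, 4 did, against 0 with all libraries. Windows of the whole genome were not counted with a library left out, so these counts cannot be set against a background. With any positive separation counted, both DMSO libraries lay above both AC220 libraries in 33 windows (1.12%, against 1.55% of all windows) and both AC220 libraries lay above in 2 (0.0679%, against 0.562%). The gap over whole gene bodies was thus seen within each number and seldom between all libraries at a single window.

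Windows that carried the mark in all 4 libraries were rare. Only 8 of 2946 windows (0.272%) were covered over at least 50% in every library, against 3.85% of windows in the rest of the genome, and 73.6% had no peak in any library, against 64.6%. The 8 windows formed 6 islands of 5 to 10 kb. They lay at the start of CSMD3 (chromosome 8, 114445001 to 114450000), at the start of LRP1B (chromosome 2, 142885001 to 142890000), in the PTPRD domain (chromosome 9, 8645001 to 8655000), near the far end of CNTNAP2, in CTNNA3 770 kb after its start, and in DLG2 1900 kb after its start (chromosome 11, 83435001 to 83440000). The DLG2 island was covered over 56.1% in AC220 1 and 86.7% in AC220 2, against 52.8% in DMSO 1 and 95.3% in DMSO 2. PCDH15 and CSMD1 had none. Another 82 windows (2.78%) were so covered only in the libraries numbered 2, and 144 (4.89%) in DMSO 2 alone, against 6 (0.204%) in AC220 2 alone. In the rest of the genome 7.09% were so covered only in the libraries numbered 2. There, 4.52% were so covered in DMSO 2 alone and 1.31% in AC220 2 alone.

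Less of the DMSO coverage was listed with AC220 in the gene bodies than across the genome. Of the bases covered in DMSO 1 within the gene bodies, 26.6% were also covered in AC220 1, and of those covered in DMSO 2, 44.8% were also covered in AC220 2; across chromosomes 1 to 22 and X these shares were 56.2% and 72.6%. The other way round, 55.3% of AC220 1 bases in the gene bodies were also covered in DMSO 1 and 84.5% of AC220 2 bases in DMSO 2, against 67.8% and 86.4% across the genome. Of the DMSO 1 bases in the gene bodies, 84.7% were covered in the longer AC220 2 list, against 91.6% across the genome. In DMSO 2, 94.8% of these bases were covered, against 95.0% across the genome. Shares depend on the lengths of the lists compared, and no test was run on these shares. By gene, PCDH15 had the lowest shares of DMSO bases also covered with AC220, at 7.54% within number 1 and 27.2% within number 2. PTPRD had the highest within number 1 at 55.8%, and CSMD1 the highest within number 2 at 56.5%.

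**Figure D5:**
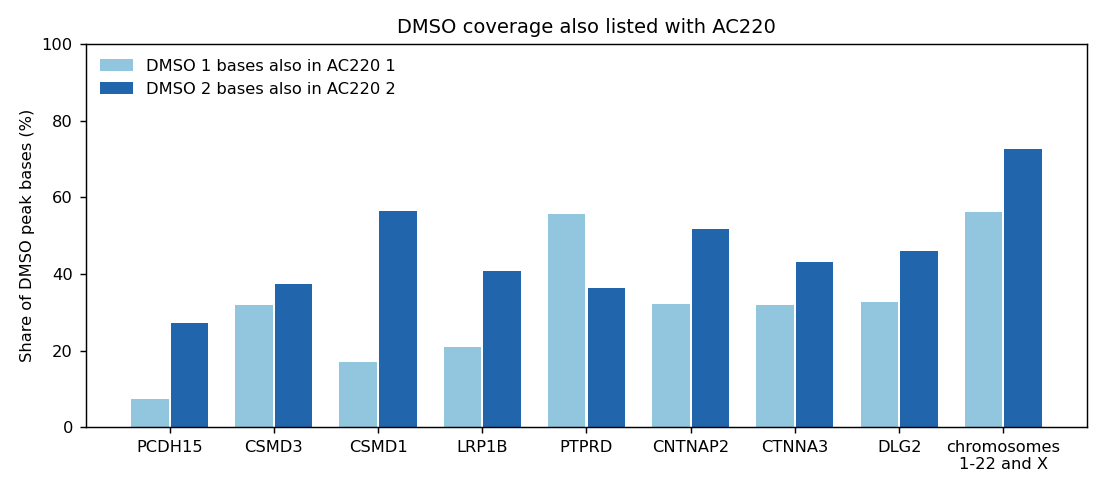
Share of the bases covered in a DMSO library that were also covered in the AC220 library of the same number (vertical axis, percent), by gene body and over chromosomes 1 to 22 and X. Every gene body lies below the genome value of 56.2% within number 1 and of 72.6% within number 2.

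Peaks in the gene bodies were narrower in the median than those of the whole list of their library, and their median fold enrichment ranked below the middle of that list. The gene bodies held 7.54 and 29.8 peaks per Mb in AC220 1 and AC220 2, against 11.9 and 37.7 in DMSO 1 and DMSO 2, while the genome averaged 34.4 and 45.9 in AC220 1 and AC220 2, against 34.6 and 38.6 in DMSO 1 and DMSO 2. The genes differed in this: CSMD1 (55.8) and CTNNA3 (46.6) exceeded the genome in AC220 2, and PCDH15 (58 per Mb), CSMD3 (58.7), CSMD1 (53.9) and CTNNA3 (57.9) exceeded it in DMSO 2. The median peak width was 688 bp and 1100 bp with AC220, against 904 bp and 1541 bp with DMSO; over the genome it was 996 bp and 1614 bp with AC220, against 1211 bp and 2323 bp with DMSO. Peaks of at least 10 kb numbered 0 of 111 and 1 of 439 with AC220, against 0 of 175 and 25 of 555 with DMSO, of which 11 were in CSMD1. Over the genome they numbered 1730 of 104517 peaks in AC220 1 and 10679 of 139465 in AC220 2. With DMSO the genome had 2656 of 104913 in DMSO 1 and 14646 of 117350 in DMSO 2. The median fold enrichment, the authors' value for each peak, ranked at percentiles 40.9 and 37.6 of the library's own list in AC220 1 and AC220 2, and at percentiles 41.7 and 40.1 in DMSO 1 and DMSO 2. The widest peak of each gene measured 0.807 to 7.01 kb in AC220 1 and 6.65 to 15.4 kb in AC220 2, against 3.10 to 8.07 kb in DMSO 1 and 12.3 to 28.6 kb in DMSO 2. Of the 555 DMSO 2 peaks, 262 shared no base with any AC220 2 peak. These had a median width of 948 bp and a median fold of 1.97, against 2940 bp and 2.16 for the 293 that shared at least 1 base. Among the 175 DMSO 1 peaks, 114 shared no base with AC220 1 peaks, with medians of 706.5 bp and 2.74, against 2075 bp and 2.91 for the other 61. At least 1 base was shared by 52.8% of these DMSO 2 peaks, against 72.8% over the genome. For DMSO 1 it was 34.9%, against 59.96% over the genome. The contrast in width and fold was also seen over the genome, so it is not particular to these genes. There, DMSO 2 peaks sharing no base had medians of 916 bp and 1.96, against 3572 bp and 2.17 for the others. In DMSO 1 these medians were 747 bp and 2.76, against 2002 bp and 2.92.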

How the data were processed

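H3K27me3 libraries of MOLM14 cells were analysed through 1 deposited list of broad peaks each; groups follow the sample titles. The submitters' processing notes list BWA 0.7.10-r789 and MACS2 2.1 but no settings. Each library has its own list. The deposited lists give peak positions in bp (columns in broad peak order), a fold enrichment that is a ratio over the background of the same library, and a p-value and q-value per peak as -log10; the deposited score is 10 times the -log10 q, rounded down in nearly all peaks. The use of inputs or Drosophila reads in the calls is not stated. No build is named; peak ends matched GRCh37, with lengths, bands and stains from circlize 0.4.16 in R 4.3.3. The gene table is of another build (GRCh38.p14), so no coordinates were converted; it gave names and promoter sequences only. A promoter was matched to a span where its distance from the far end of the gene was within 20 kb of the length of the span.

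Covered shares came from numpy 2.4.6 and pandas 2.3.3 under Python 3.11.15, figures from matplotlib 3.10.9. For the comparison of treatments, log2 values entered an exact two-sided permutation test over 6 assignments of libraries; the p-values of the 8 genes, 0.667 each, stay 0.667 with Benjamini-Hochberg adjustment. The text names all 8 genes, islands covered over at least 50% in all libraries or only in both DMSO libraries, windows called by the separation rule, and the widest peaks, of which some are given by their range. Depth is unknown, since no reads are given. Members, lists and rules were chosen with earlier results of these data known, and the stretches within genes, the tile rules and the comparison with the darkest bands were chosen after the values had been seen. The coverage and window code was tested on simulated data. Lists of other long genes were not analysed here, since no annotation of GRCh37 was used.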

Additional observations from a re-analysis of the deposited data

How the results depend on the processing

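With 2 libraries per treatment no exact p could fall below 0.33, so alternatives were read by direction. The gene bodies relative to the rest of the genome kept their direction under each of 14 alternatives. They ran from -2.17 (only peaks with a -log10 q of at least 3) to -0.03. The ends against the interior kept theirs under the 12 alternatives that gave a value. In both sets the alternative with the numbers as a replicate block repeats the main value by construction, so its direction could not turn. With a -log10 q of at least 3 the ends against the interior gave no value, because the ends had no peak in AC220 1. There the ends and interior were covered over 0% and 0.0189% in AC220 1, against 0.160% and 0.138% in DMSO 1. With lists trimmed within each number, ends and interior had the same log2 ratio of -0.39 within number 2. Leaving out single libraries gave ranges of -1.42 to -0.03 for the gene bodies relative to the rest and 0.11 to 0.96 for the ends. The log2 ratio of all gene bodies ranged from -2.36 to 0.39 and the median over genes from -2.41 to 0.41; without AC220 1 they were 0.39 and 0.41, and without DMSO 2 they were 0.32 and 0.37. By gene, leaving out single libraries gave ranges of -4.37 to 0.41 (PCDH15), -2.81 to 0.090 (CSMD3), -2.73 to 0.46 (CSMD1), -2.36 to 0.91 (LRP1B), -2.00 to 0.32 (PTPRD), -1.49 to 0.47 (CNTNAP2), -2.68 to 0.53 (CTNNA3) and -1.90 to 0.59 (DLG2). Without AC220 1 the single genes were reversed at 0.41 (PCDH15), 0.090 (CSMD3), 0.46 (CSMD1), 0.68 (LRP1B), 0.12 (PTPRD), 0.30 (CNTNAP2), 0.53 (CTNNA3) and 0.42 (DLG2); without DMSO 2 all but the CSMD genes were reversed, at 0.10 (PCDH15), 0.91 (LRP1B), 0.32 (PTPRD), 0.47 (CNTNAP2), 0.42 (CTNNA3) and 0.59 (DLG2). These removals leave the numbers unbalanced. DLG2 was also reversed with all lists at equal length (0.12).

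The count of gene bodies lower within both numbers was 5 with a -log10 q of at least 2, where within number 1 AC220 was higher for PCDH15 (0.0807% in AC220 1 against 0% in DMSO 1), DLG2 (0.0177% against 0%) and CNTNAP2 (0.304% against 0.284%). It was 3 with at least 3, where PCDH15, CSMD3, LRP1B, CNTNAP2 and DLG2 had no peak in either library numbered 1, and it has no value without a library. Of 2 Mb tiles, 74.2% were lower within both numbers with a -log10 q of at least 2 and 52.1% with at least 3. Only tiles with coverage in all 4 libraries entered these shares, a filter not applied to the gene bodies. Windows lower with AC220 numbered 0 with a -log10 q of at least 3, with lists trimmed within each number, with a separation of 50 percentage points or with windows of 10 kb. They numbered 4 with peaks of at least 2 kb, 7 with all lists at equal length, 12 with a separation of 10 percentage points, 40 with windows of 1 kb, and 2 to 253 with a library left out. Windows higher with AC220 numbered 1 with all lists at equal length or with windows of 1 kb, and 0 to 6 with a library left out. Windows marked in all libraries numbered 79 with any base covered and 0 with all of a window covered. Windows of the whole genome were not counted under these alternatives, so these window counts cannot be set against a background. The cause was not tested.

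With the numbers as a replicate block the mean log2 ratio of the gene bodies was -0.99, that relative to the rest of the genome -0.73 and that of ends against interior 0.54, each with an exact p of 0.5, the smallest 2 pairs allow. The deviations of libraries with the same number from their treatment means had a correlation of 0.70 over all windows and 0.68 over windows of the gene bodies. The AC220 minus DMSO difference per window had a correlation of only 0.149 between the numbers over windows of the gene bodies. Adjustments of depth could not be made, since the lists hold no read counts.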

Other observations

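The DNA just outside the gene bodies was unequally marked. The 100 kb beyond the far end of CNTNAP2 were covered over 12.3% in AC220 1 and 33.3% in AC220 2, against 15.6% in DMSO 1 and 39.7% in DMSO 2, so the coverage at that end of the gene went on past it. The 100 kb beyond the start of LRP1B had 5.83% and 26.8%, against 7.02% and 37.9%. Those beyond the start of PCDH15 had no peak in AC220 1 or DMSO 1, and 8.58% in AC220 2 against 26.2% in DMSO 2. No peak was listed in any library in the 100 kb beyond the far ends of CSMD1 and CTNNA3. The 100 kb beyond the start of CSMD3 had no peak in 3 libraries and 0.645% in AC220 2, although the first 10 kb inside that start were the most densely covered of the 8 such stretches at starts in AC220 1, DMSO 1 and DMSO 2.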
